A study of Mus musculus with 4 samples.

Results

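The ATF4 amino acid response and the cytosolic tRNA synthetases were described across livers labelled Ern1-LKO and WT. The 44 genes were taken by name from the deposited table of 25572 loci and were all found, Hars and Qars only in loci that combine several genes. They fall into 5 classes: 12 PERK-ATF4-CHOP factors and their regulators, 5 genes of serine and one-carbon synthesis, 3 of asparagine and proline synthesis, 4 amino acid transporters and 20 cytosolic tRNA synthetases. Liver RNA was sequenced from 8-week-old C57BL/6J mice, 2 labelled as a liver-specific knockout of Ern1 (Ern1-LKO) and 2 labelled wild type as the control for it (WT). The sources used here do not name the promoter that drives the recombinase or the alleles the WT controls carry. IRE1α, the product of Ern1, senses stress of the endoplasmic reticulum (ER) and splices Xbp1 mRNA. The study asked what its loss from liver does to the liver transcriptome.

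ATF4 is a bZIP transcription factor whose translation increases when eIF2α is phosphorylated, by PERK during ER stress or by GCN2 when amino acids run short. Together with C/EBP family partners it binds C/EBP-ATF response elements and raises genes for amino acid synthesis, amino acid uptake and tRNA charging, and it also raises CHOP (Ddit3), which carries the response further. The tRNA synthetases join each amino acid to its tRNA for translation.

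Expression is the authors' FPKM, fragments scaled by transcript length and by library size, with 1 value per genotype for the 2 libraries together. How library size was scaled is not stated in the sources used here. The spread between mice is therefore not shown, and either mouse of a genotype could carry a difference. Calls are those of the authors' test, q under 0.05 over 13320 tested loci. Errors are standard errors (SE) implied by its statistic, and intervals of 95% are built from them. Read depth is not known from these values. In whole liver, fewer cells of a type and less RNA per cell cannot be told apart. Ern1 itself stood at 30.2 FPKM in Ern1-LKO livers and 21.4 FPKM in WT livers (in the authors' deposited table p = 0.0084, q = 0.172), higher in the livers labelled as its knockout but not called. The table holds 1 value for the whole gene and none per exon, so it does not show whether a deleted part is missing and gives no check of the labels. All 12 hepatocyte markers were detected, with a summed level of 34584 FPKM in Ern1-LKO livers and 35086 FPKM in WT livers.

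Of the 44 genes, 41 were tested; Phgdh, Pycr1 and Slc7a1 were too low. Asns, Psat1, Chac1 and Ddit4 rose in Ern1-LKO livers, Atf5 fell, and the other 36 were not called. The 4 rises belonged to asparagine synthesis, serine synthesis and the ATF4-CHOP regulators, whereas none of the 20 synthetases and none of the 3 tested transporters was called in either direction. Over all tested loci 1.58% were called higher, 1.16% were called lower and 2.74% were called in either direction. The 41 tested genes changed, at the median, by -0.08 on the log2(FPKM + 1) scale, against -0.0084 over all tested loci. By class that median was 0.03 for the 12 factors and regulators, 0.05 for 4 serine and one-carbon genes, 1.14 for 2 asparagine and proline genes, 0.08 for 3 transporters and -0.14 for the 20 synthetases.

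**Figure D1:**
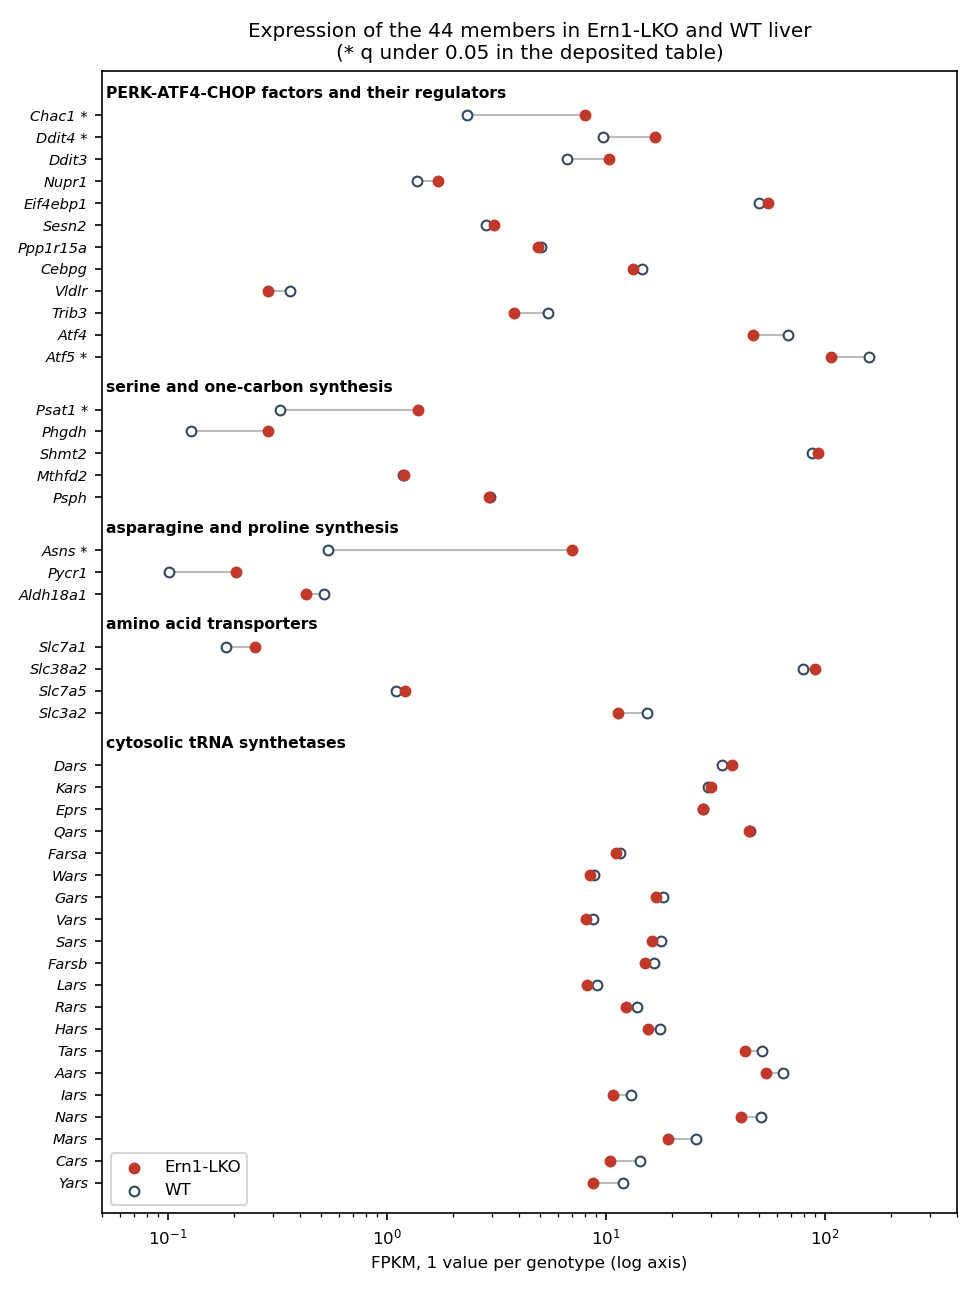
FPKM of the 44 genes by class on a log axis, 1 filled red point for Ern1-LKO and 1 open point for WT livers; asterisks mark q under 0.05. Asns moves the farthest, at 6.97 FPKM in Ern1-LKO and 0.54 in WT livers, while 18 of the 20 synthetases lie below their WT values and none was called.

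Asns, asparagine synthetase, which makes asparagine from aspartate and glutamine, showed the largest change of the 41. Its level was 6.97 FPKM in Ern1-LKO livers, against 0.54 FPKM in WT livers, 12.9 times as high (95% interval 8.43 to 19.9). Its log2 fold change in the authors' deposited table is 3.69 (implied SE 0.32), with q = 0.00343. That is the smallest q there, given at the smallest p listed, 5e-05. Other genes named below share it, so it does not rank Asns above them. This was the 13th largest rise among the 10931 tested loci with at least 1 FPKM in either genotype. Asns lies on chromosome 6, 7675171 to 7693182 (mm10), on the minus strand. The 250 bases before its start site are printed because they hold, in capitals, the core letters of a C/EBP-ATF response element, at positions -23 to -16 from the start (GRCm38.p6, the assembly that mm10 names, chr6:7693210-7693459, minus strand, RefSeq).
Asns: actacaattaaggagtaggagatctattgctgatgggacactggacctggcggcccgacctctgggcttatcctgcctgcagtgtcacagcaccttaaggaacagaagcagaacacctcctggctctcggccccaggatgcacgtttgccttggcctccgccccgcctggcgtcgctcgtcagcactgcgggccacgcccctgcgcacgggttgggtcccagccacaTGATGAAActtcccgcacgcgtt

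Chac1, a γ-glutamylcyclotransferase that degrades glutathione and a known target of ATF4 and CHOP, was at 7.98 FPKM in Ern1-LKO livers and 2.31 FPKM in WT livers, a ratio of 3.45 (95% interval 2.52 to 4.73). In the authors' deposited table its log2 fold change is 1.79 (implied SE 0.23), also with q = 0.00343. It lies on chromosome 2, 119351242 to 119354327. Its upstream stretch holds a core of the same element on the opposite strand, at positions -193 to -186 (chr2:119350992-119351241, plus strand). This core reads TGATGCAA, that of Asns TGATGAAA.
Chac1: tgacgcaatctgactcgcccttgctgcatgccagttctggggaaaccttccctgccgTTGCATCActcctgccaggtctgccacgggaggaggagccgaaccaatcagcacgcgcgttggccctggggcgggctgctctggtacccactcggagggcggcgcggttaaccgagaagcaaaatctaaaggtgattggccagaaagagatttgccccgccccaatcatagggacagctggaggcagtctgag

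Psat1, phosphoserine aminotransferase of the serine pathway, was at 1.38 FPKM in Ern1-LKO livers, against 0.32 FPKM in WT livers, a ratio of 4.28 (95% interval 2.50 to 7.35). The authors' deposited table gives 2.10 (implied SE 0.40) on the log2 scale and q = 0.00343. Its level stayed low in both genotypes. Ddit4, which encodes REDD1, an inhibitor of mTORC1, was at 16.7 FPKM in Ern1-LKO livers and 9.68 FPKM in WT livers, a ratio of 1.72 (95% interval 1.34 to 2.22), with q = 0.00343 in the authors' deposited table. Psat1 lies on chromosome 19, 15905123 to 15925059, and Ddit4 on chromosome 10, 59949675 to 59951770. Their upstream stretches, shown for comparison with those of Asns and Chac1, have no capitals because none of the motifs searched occurs in them (chr19:15925060-15925309 and chr10:59951771-59952020, both minus strand).
Psat1: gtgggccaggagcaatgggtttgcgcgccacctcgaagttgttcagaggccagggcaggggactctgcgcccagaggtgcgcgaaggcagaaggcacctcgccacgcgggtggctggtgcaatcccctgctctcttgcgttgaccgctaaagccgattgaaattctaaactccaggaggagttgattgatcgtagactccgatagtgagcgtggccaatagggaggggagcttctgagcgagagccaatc
Ddit4: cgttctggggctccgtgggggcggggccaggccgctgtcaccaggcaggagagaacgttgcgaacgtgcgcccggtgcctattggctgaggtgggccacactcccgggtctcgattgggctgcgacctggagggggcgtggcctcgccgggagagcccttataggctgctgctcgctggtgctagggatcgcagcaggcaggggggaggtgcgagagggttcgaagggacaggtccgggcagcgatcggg

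None of the transcription factors was called higher. Atf5, a bZIP factor related to ATF4, was at 107 FPKM in Ern1-LKO livers and 159 FPKM in WT livers, the highest level of the 44 genes in both. It fell by 0.58 on the log2 scale (implied SE 0.18), with q = 0.0493 in the authors' deposited table, just inside the threshold. Atf4 itself was at 46.9 FPKM in Ern1-LKO livers and 67.5 FPKM in WT livers, just outside it (log2 fold change -0.53, implied SE 0.17, q = 0.0559 in the authors' deposited table). The ratios of Atf5 and Atf4, 0.67 and 0.69, were close to each other. Atf4 mRNA does not measure ATF4 protein, whose translation is regulated. The Atf5 row shares its listed interval on chromosome 7 with rows for Tbc1d17 (12.7 FPKM in Ern1-LKO livers and 13.0 FPKM in WT livers) and for Il4i1 and Nup62 (4.05 and 4.80 FPKM), and the sources used here do not say how reads in their overlap were divided.

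Ddit3, which encodes CHOP, was at 10.3 FPKM in Ern1-LKO livers, against 6.60 FPKM in WT livers. That is a ratio of 1.57, but its 95% interval runs from 0.71 to 3.48, and q = 0.924 in the authors' deposited table. The row of Ddit3 shares a listed interval with Mars, the methionyl-tRNA synthetase, on the opposite strand. Trib3, a pseudokinase induced by CHOP that restrains ATF4, was at 3.79 FPKM in Ern1-LKO livers and 5.41 FPKM in WT livers (in the authors' deposited table p = 0.0190, q = 0.286). Cebpg, a dimer partner of ATF4, was at 13.2 and 14.6 FPKM in Ern1-LKO and WT livers.

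The remaining regulators were not called. Ppp1r15a, the GADD34 subunit that directs dephosphorylation of eIF2α, was at 4.90 FPKM in Ern1-LKO livers and 5.01 FPKM in WT livers, with a wide 95% interval of the ratio, 0.31 to 3.13. Sesn2, a leucine-binding regulator of mTORC1, stood at 3.07 FPKM in Ern1-LKO livers and 2.82 FPKM in WT livers, and Nupr1, a small stress-induced nuclear protein, at 1.70 FPKM in Ern1-LKO livers and 1.36 FPKM in WT livers. Eif4ebp1, the repressor of cap-dependent translation, was at 54.8 FPKM in Ern1-LKO livers and 50.1 FPKM in WT livers, and the 95% interval of its ratio, 0.87 to 1.37, did not reach the ratio of Ddit4. Vldlr, the very low density lipoprotein receptor, lay under 1 FPKM in both genotypes (0.29 in Ern1-LKO and 0.36 in WT livers). Of these 12 factors and regulators 6 lay above WT and 6 below.

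Serine and one-carbon synthesis moved at Psat1 alone among the 4 tested genes. Phgdh, the enzyme before Psat1 in the pathway, was at 0.29 FPKM in Ern1-LKO livers and 0.13 FPKM in WT livers, too low for the authors' test. Psph, the phosphatase after Psat1, was at 2.91 FPKM in Ern1-LKO livers and 2.94 FPKM in WT livers (95% interval of the ratio 0.70 to 1.39). Among the mitochondrial folate enzymes, Shmt2 was at 92.5 FPKM in Ern1-LKO livers and 87.3 FPKM in WT livers, and Mthfd2 at 1.20 FPKM in Ern1-LKO livers and 1.18 FPKM in WT livers. Proline synthesis was at the limit of the table: Aldh18a1, which makes the proline precursor from glutamate, was at 0.42 FPKM in Ern1-LKO livers and 0.51 FPKM in WT livers, and Pycr1, which completes proline, at 0.20 and 0.10 FPKM without a test.

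The transporters gave no call. Slc38a2, the sodium-coupled carrier SNAT2, was at 89.5 FPKM in Ern1-LKO livers and 79.2 FPKM in WT livers. Slc3a2, the heavy chain that carries LAT1 to the cell surface, was at 11.4 FPKM in Ern1-LKO livers and 15.4 FPKM in WT livers (in the authors' deposited table p = 0.0120, q = 0.214). Its light chain Slc7a5 stood at 1.21 FPKM in Ern1-LKO livers and 1.09 FPKM in WT livers, and the cationic carrier Slc7a1 at 0.25 and 0.18 FPKM without a test.

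**Figure D2:**
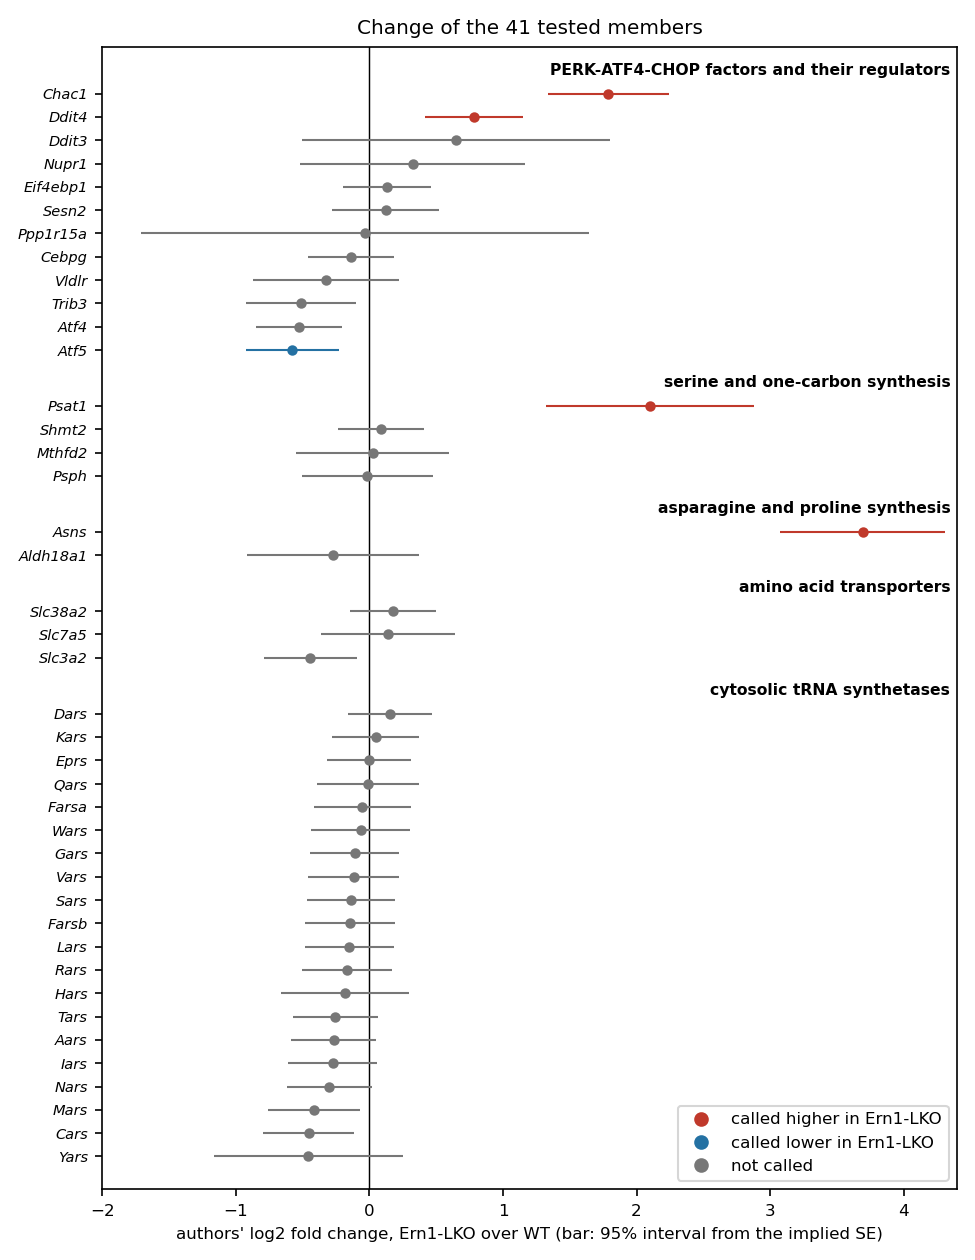
Authors' log2 fold change of Ern1-LKO over WT for the 41 tested genes by class, with 95% intervals from the implied SE; red was called higher, blue lower, grey not called. Asns, Psat1, Chac1 and Ddit4 stand clear of 0 on the right, Atf5 lies to the left, and the synthetases lie between -0.46 and 0.15.

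The 20 cytosolic tRNA synthetases were all expressed, none was called, and their ratios to WT lay between 0.73 and 1.11. Their levels ran from 8.06 to 53.6 FPKM in Ern1-LKO livers and from 8.75 to 64.5 FPKM in WT livers, with a sum of 439 FPKM in Ern1-LKO livers and 490 FPKM in WT livers, the combined rows of Hars and Qars included. Of the 20, 18 lay below WT, against 52.1% of all tested loci, and the median ratio was 0.90. With the median of expressed loci set to 0, 16 lay below WT, against 47.9% of all tested loci, Eprs and Qars being the pair that crossed.

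Aars, the alanyl enzyme, had the highest level of the class, 53.6 FPKM in Ern1-LKO livers and 64.5 FPKM in WT livers. Tars, Nars and Qars followed in WT livers, at 43.1, 41.2 and 45.1 FPKM in Ern1-LKO livers and 51.5, 50.7 and 45.4 FPKM in WT livers; Qars shares its row with Impdh2 and Qrich1. None of these differences was called. The lowest ratios were those of Yars (8.67 FPKM in Ern1-LKO and 11.9 FPKM in WT livers), Cars (10.4 and 14.2 FPKM) and Mars (19.2 and 25.6 FPKM). In the authors' deposited table Cars had p = 0.0106 and q = 0.195, and Mars p = 0.0204 and q = 0.299. They were the 2 synthetases with an unadjusted p under 0.05, both below WT. Over all tested loci 4.53% had such a p below WT and 5.74% above it.

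Dars (37.4 FPKM in Ern1-LKO and 33.7 FPKM in WT livers) and Kars (30.1 and 29.1 FPKM) were the 2 synthetases above WT. Eprs, the joint glutamyl and prolyl enzyme, was at 27.7 FPKM in Ern1-LKO livers and 27.8 FPKM in WT livers. The other synthetases, Gars, Iars, Lars, Sars, Wars, Vars, Rars, Hars, Farsa and Farsb, had ratios between 0.83 and 0.96. For 13 of the 20 the 95% interval of the ratio lay within 1.5-fold of WT in both directions, so a change of the size seen at Asns, Psat1, Chac1 or Ddit4 was outside those intervals. Of the 20 rows 7 share their listed interval with another row, and Hars is combined with Dnd1.

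The sequences at these genes were compared with the expression values. RefSeq windows from 250 bases before to 50 after a start site were used for 34 of the 44 genes. The core of the C/EBP-ATF response element, TGATGNAA on either strand, occurred in 10 of them (29.4%), against 4.51% of 27025 genes with such windows. The genes were chosen by class, with known ATF4 targets among them, so the share describes the list and was not tested. The core was held by 4 of 11 factors and regulators, 2 of 3 asparagine and proline genes, 4 of 12 synthetases, and none of 5 serine and one-carbon genes or 3 transporters. Of the genes that rose, 2 of 4 held it (Asns and Chac1), of those tested and not called, 7 of 26, and of the 3 not tested, 1 (Pycr1). Atf5, which fell, did not hold it.

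The 10 occurrences are aligned here, as 30 bases each on the gene's strand with the core in capitals, to show how alike they are at genes that rose and at the other genes; on the opposite strand the core reads as its reverse complement.
Asns, rose: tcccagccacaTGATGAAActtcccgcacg
Chac1, rose: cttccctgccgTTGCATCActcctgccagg
Nupr1, not called: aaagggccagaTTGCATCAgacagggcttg
Trib3, not called: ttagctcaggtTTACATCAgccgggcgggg
Vldlr, not called: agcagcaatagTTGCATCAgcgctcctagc
Pycr1, not tested: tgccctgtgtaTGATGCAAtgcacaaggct
Gars, not called: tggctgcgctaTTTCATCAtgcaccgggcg
Iars, not called: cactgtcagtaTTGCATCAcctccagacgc
Tars, not called: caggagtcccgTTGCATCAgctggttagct
Yars, not called: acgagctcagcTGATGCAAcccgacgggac

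Of the 10 cores, 7 read TGATGCAA, that of Chac1 among them, 2 read TGATGAAA, at Asns and Gars, and 1 read TGATGTAA, at Trib3. The cores of Trib3, Iars and Yars lie within the 22 bases after the start site, and the others before it. The cAMP response element TGACGTCA occurred at Ppp1r15a alone, against 2.03% of genes, and the ER stress response element, CCAAT and CCACG with 9 bases between them, at none of the 34, against 0.137% of genes. A match is not evidence of binding, and these windows do not cover enhancers or introns.

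**Figure D3:**
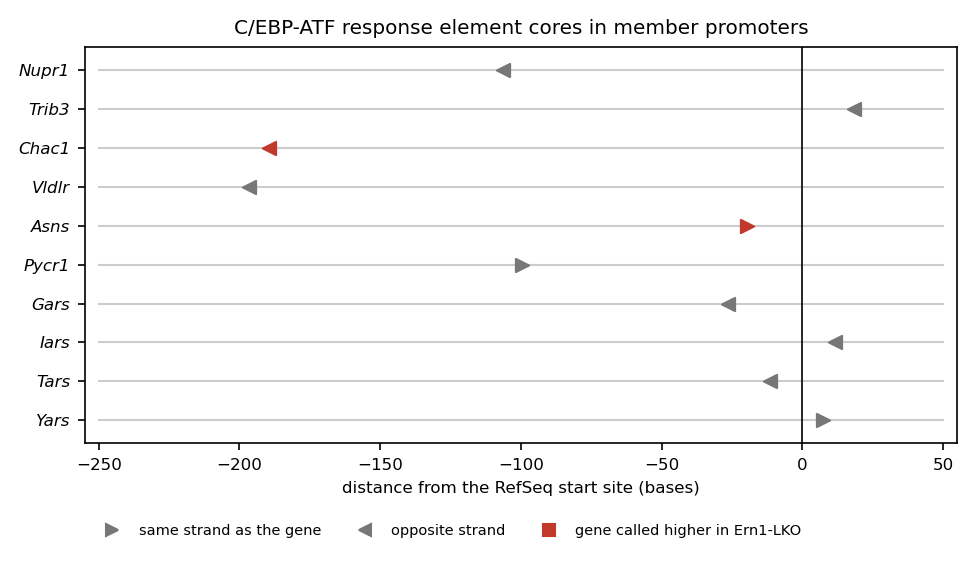
Place of each TGATGNAA core in the windows of the 10 genes that hold it, in bases from the RefSeq start site; triangles point right where the core is on the gene's strand and left where it is on the other, and red marks Asns and Chac1, which rose. Cores lie between positions -200 and 22, at genes that rose, at genes not called and at Pycr1, which was not tested.

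Other genes of the pathway were counted in 9 lists of 150 genes, of which 139 were tested. Of these, 3 were called higher and 1 lower, beside 1.58% and 1.16% of all tested loci. Upstream of ATF4, Eif2ak3, which encodes PERK, fell to 2.61 FPKM in Ern1-LKO livers, against 4.58 FPKM in WT livers (log2 fold change -0.81, implied SE 0.19, q = 0.00343 in the authors' deposited table). Eif2ak4, which encodes GCN2, was at 2.34 and 2.60 FPKM in Ern1-LKO and WT livers. Among the 15 eIF2 kinases and eIF2 genes 14 lay below WT, against 52.1% of all tested loci. Their log2 fold changes had a median of -0.16, and no further gene was called.

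Among 14 tested dimer partners and related bZIP factors, Fos (5.02 FPKM in Ern1-LKO and 1.89 FPKM in WT livers) and Junb (30.02 and 14.8 FPKM) rose, both immediate early genes. Jun (13.1 and 8.65 FPKM) had q = 0.0507 and Cebpd (5.27 and 3.06 FPKM) q = 0.0523 in the authors' deposited table. Below WT, Jund (34.9 and 44.1 FPKM) and Atf6 (9.43 and 11.9 FPKM) had unadjusted p = 0.0435 and 0.0439 in the authors' deposited table. Of the 14, 8 lay above WT and 6 below, with a median log2 fold change of 0.08. Cebpb stood at 216 FPKM in Ern1-LKO livers and 177 FPKM in WT livers, and Atf3, itself an ATF4 target, at 2.11 and 2.15 FPKM.

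Among 18 tested further ATF4 targets Got1, the cytosolic aspartate aminotransferase, rose to 154 FPKM in Ern1-LKO livers, against 86.6 FPKM in WT livers (log2 fold change 0.83, implied SE 0.16, q = 0.00343 in the authors' deposited table). Fgf21, a liver hormone, was at 0.25 FPKM in Ern1-LKO livers and 1.05 FPKM in WT livers (in the authors' deposited table p = 0.0092, q = 0.182), and Gdf15, another secreted stress factor, at 6.51 and 5.57 FPKM. The list's median log2 fold change was 0.03.

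The remaining 6 lists held no call. The 17 mitochondrial tRNA synthetases, which charge tRNA for mitochondrial translation and had 10 genes above WT, had a median log2 fold change of 0.03, against -0.15 for the 20 cytosolic ones; the difference was not tested. Their highest rows were Tars2 with Ecm1 (70.3 FPKM in Ern1-LKO and 57.8 FPKM in WT livers) and Lars2 (29.8 and 30.9 FPKM). Among the 4 scaffold and export genes, Aimp1 was at 22.2 and 24.6 FPKM and Xpot at 13.7 and 15.1 FPKM in Ern1-LKO and WT livers.

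The enzymes around serine, glycine and folate were led by Gnmt (1788 FPKM in Ern1-LKO and 1675 FPKM in WT livers) and Aldh1l1 (493 and 413 FPKM), and those around asparagine and proline by Arg1 (799.9 and 784 FPKM) and Glul (499 and 434 FPKM). Prodh and Prodh2 had unadjusted p = 0.0103 and 0.0248 in the authors' deposited table, above WT, and the asparaginase Aspg p = 0.0392, below WT. The 23 other transporters had 15 genes above WT and a median of 0.09 for their log2 fold changes, with Slc38a3 at 790 FPKM in Ern1-LKO and 627 FPKM in WT livers and Slc38a4 at 362 and 321 FPKM. Of the 23, 4 had an unadjusted p under 0.05 above WT in the authors' deposited table, Slc1a5, Slc43a1, Slc7a2 and Slc1a2, and 0 below it, against 5.74% and 4.53% of all tested loci. Slc1a5, the glutamine carrier ASCT2, had the smallest of these (p = 0.0056, q = 0.134 in the authors' deposited table) and a ratio of 1.69. Of the 18 mTORC1 and amino acid sensing genes 16 lay below WT (median -0.12 on the log2 scale), against 52.1% of all tested loci. Eif4ebp2 stood at 69.1 and 71.2 FPKM and Deptor at 36.2 and 42.0 FPKM in Ern1-LKO and WT livers.

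**Figure D4:**
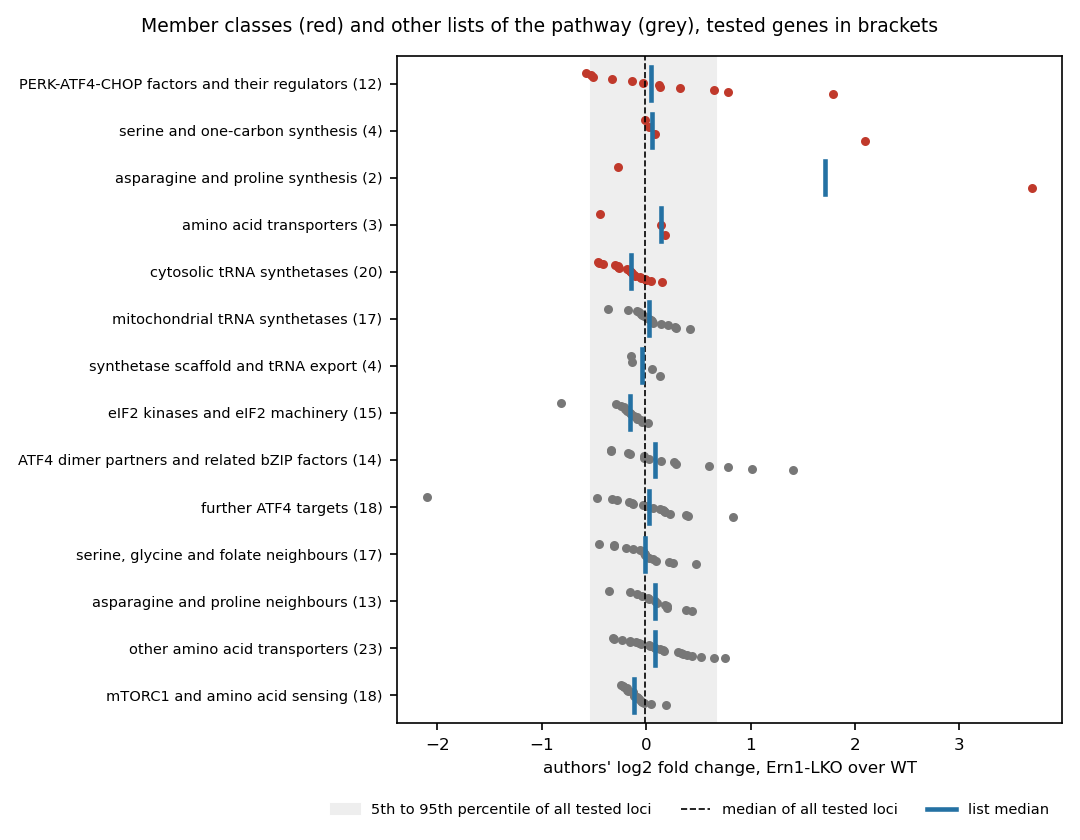
Authors' log2 fold change of Ern1-LKO over WT for each tested gene (points) in the 5 member classes (red) and 9 other pathway lists (grey), with list medians in blue and the 5th to 95th percentile of all tested loci, -0.53 to 0.67, as a band. Most points lie within the band, and the median of the cytosolic synthetases lies left of that of the mitochondrial ones.

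Markers of other cell types also differed between the genotypes. All 12 stellate cell markers lay above WT and 5 were called higher, against 47.9% and 1.58% of all tested loci. The 5 were Col1a1, Col1a2, Col3a1, Acta2 and Lum. The other 7 were not called, among them Lrat (2.47 FPKM in Ern1-LKO and 2.26 FPKM in WT livers), Pdgfrb (1.39 and 1.30 FPKM) and Hand2 (3.73 and 3.19 FPKM). The sum of the 12 was 101 FPKM in Ern1-LKO livers and 67.4 FPKM in WT livers, mostly Dcn (56.6 and 41.7 FPKM), which was not called. All 6 tested adipocyte markers lay above WT, and 1 of them, Retn, was called. The sum over 8 genes was 39.6 FPKM in Ern1-LKO livers and 19.5 FPKM in WT livers, mostly Fabp4 (24.9 and 17.5 FPKM), which was not called. Cfd (7.66 and 0.17 FPKM) was not called either, with an implied SE of 20.8 in an interval shared with many rows. Retn, Lep and Cidea were listed at 0 in WT. Of 16 pancreatic acinar markers 14 were listed at 0 in Ern1-LKO livers and 2 in WT livers. Of them 5 were called lower, Prss2, Try4, Try5, Cela3b and Pnlip, against 1.16% of all tested loci. These 5 lay under 1 FPKM in WT livers, between 0.43 and 0.74 FPKM. Ctrb1 and Clps, at 1.41 and 1.12 FPKM in WT livers and 0 in Ern1-LKO livers, were not called. The sums, 60.3 FPKM in Ern1-LKO and 55.7 FPKM in WT livers, were mostly Cela1. Kupffer markers summed to 401 and 377 FPKM, endothelial markers to 124 and 115 FPKM, lymphocyte markers to 6.24 and 4.93 FPKM, neutrophil markers to 13.2 and 22.8 FPKM and bile duct markers to 39.2 and 46.3 FPKM in Ern1-LKO and WT livers. Of 11 Kupffer markers 10 lay above WT, all but the largest row, Cd68 with Eif4a1 (150 and 163 FPKM). Of 10 endothelial markers 9 did, with Vwf called higher, as did 3 of 6 tested lymphocyte markers, with Cd4 called higher. All 3 tested neutrophil markers lay below WT, and their sums were mostly S100a8 and S100a9. Of 6 tested bile duct markers 4 lay above WT, and the sums were mostly Spp1 (30.3 and 37.2 FPKM). No neutrophil or bile duct marker was called. The part of these cell types in the rises of Asns, Psat1, Chac1 and Ddit4 was not tested.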

How the data were processed

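The deposited table holds 1 FPKM value per genotype and locus, the authors' log2 fold change (Ern1-LKO over WT), p-value, q-value and signed test score, with the columns of a Cuffdiff comparison, per the file headers. The mm10 build, Cufflinks 2.2.1, TopHat2 2.0.14, FastQC 0.11.3 and bcl2fastq were used, per the submitters' processing notes, which give no roles; the sources used here do not state the annotation, the scaling or the use of strand. Per the labels' protocols, RNA was extracted with RNAiso and libraries made with a NEBNext Ultra kit.

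No test across animals could be run, so a gene is called at the authors' q under 0.05. The implied SE divides the log2 fold change by the test score and multiplies by the natural log of 2, without sign; its z was 1.02 times that of the deposited p at the median (5th to 95th percentile 0.990 to 1.07 over 11619 loci). Benjamini-Hochberg adjustment of the deposited p gave the same number of calls, 365. Starts were raised by 1 to be 1-based. Of 25572 loci 13320 were tested; 1 line without values was not used. FPKM keeps no depth, so no counting interval was computed.

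Members and lists were chosen with earlier results of these data known. Every member is accounted for by class, with the authors' statistics for those called or with p under 0.05; from each other list the called genes are named, or the 2 of highest mean FPKM, and others as examples chosen after their values were seen. Mars was matched in RefSeq as Mars1, and 1 further promoter window is not reported here. The cAMP and ER stress response element searches were added after the data were seen. Alternatives were pseudocounts of 0.1, 0.5 or none, FPKM filters at 1 and 5, q under 0.01, a 2-fold minimum, adjustment over expressed loci, centring and single-gene loci. Steps were tested on simulated data. Tools were matplotlib 3.10.9, scipy 1.17.1, pandas 2.3.3 and numpy 2.4.6 in Python 3.11.15.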

Additional observations from a re-analysis of the deposited data

How the results depend on the processing

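The number of genes called higher stayed at 4 or 3 except with a mean FPKM of at least 5, where 2 of them, Ddit4 and Chac1, were above the filter and the asparagine and proline class had 0. Psat1 also lay under a mean FPKM of 1, which left 0 rises in the serine and one-carbon class. Over all tested loci the 211 rises became 163 at a mean FPKM of at least 1 and 84 at 5. With a 2-fold minimum the factors and regulators had 1 rise, Chac1. The 1 fall, Atf5, became 0 at q under 0.01 and with a 2-fold minimum, and 2 with a normal approximation in place of the authors' p, where Atf4 joined it at an adjusted p of 0.0432; with the median of expressed loci, -0.02 on the log2 scale, set to 0, Atf4 was at 0.0598 and Atf5 at 0.0471. The 154 falls over all tested loci became 97 at q under 0.01, 58 with a 2-fold minimum and 198 with the normal approximation. The median change of asparagine and proline synthesis, 1.14 on the log2(FPKM + 1) scale over 2 genes, was 1.62 with a pseudocount of 0.1, 1.71 with none and 2.37 at a mean FPKM of at least 1; that of the transporters, 0.08, was -0.12 at a mean FPKM of at least 5. These moves follow from the fewer genes left or from the low levels. A pseudocount of 1 understates Asns most, at 2.37, against 2.85 with 0.5 and 3.47 with 0.1. The class median of the cytosolic synthetases lay between -0.15 and -0.12 under every alternative run. The other 116 alternative values of these counts and medians stayed within 1.5 times the count or within the implied SE of a median gene. The median filter at a mean FPKM of at least 5 left no asparagine or proline gene and gave no value. No paired analysis was possible because each genotype has a single column; the replicate block and leave-one-out were not run either.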

Other observations

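The TGATGNAA core was also counted, after the data were seen, in windows of the 9 other pathway lists, beside 4.51% of all genes with a window. It occurred in 4 of 16 further ATF4 targets (Fgf21, Got1, Herpud1 and Slc7a11), 2 of 21 other transporters (Slc1a4 and Slc7a7), 1 of 12 dimer partners and bZIP factors (Atf3) and 1 of 11 eIF2 kinases and eIF2 genes (Eif2s3x). It occurred in none of 14 mitochondrial tRNA synthetase genes, 4 scaffold and export genes, 13 serine, glycine and folate neighbours, 8 asparagine and proline neighbours or 18 mTORC1 and amino acid sensing genes. These shares were not tested against each other or against all genes, and lists of this size do not separate a share of 0 from that of all genes. Of the 4 further ATF4 targets, Got1 rose, Fgf21 stood at 0.25 FPKM in Ern1-LKO livers and 1.05 FPKM in WT livers without a call, Herpud1 at 349 and 308 FPKM in Ern1-LKO and WT livers, and Slc7a11 was listed at 0 in Ern1-LKO livers and at 0.0018 FPKM in WT livers.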
